A study of Mus musculus with 14 samples.

Results

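The genes described here encode proteins that find, mend or signal damage to DNA, and they were followed in muscle precursor cells of mice at 2, 12 and 24 months of age. They form a list of 39 genes from base excision and single-strand break repair, mismatch repair, nucleotide excision repair, end joining, recombination and crosslink repair, and damage signalling. Every probe set annotated to these genes and to no other was taken, which gave 88 of 45101 probe sets for 38 genes. Xrcc2, a recombination protein, had no such probe set. The genes are listed by function, and no measured value enters the rule.

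Expression was measured on 14 Affymetrix mouse arrays, each hybridized with RNA of skeletal muscle precursors sorted from C57BL/6 mice. The young group (2 months) has 5 arrays, the middle-aged group (12 months) 4 and the aged group (24 months) 5, and no array carries a treatment or an altered allele in its labels. The cells were freed from muscle fibres by digestion and sorted as positive for CD29 and Cxcr4 and negative for CD45, Ter119 and Sca-1, which selects mainly for satellite cells, the resident stem cells of muscle. Whether an array holds 1 animal or a pool is not in the labels, so the p-values measure only the spread between these samples, which may be technical.

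DNA is damaged all the time by water, oxygen and copying errors, and each kind of lesion has its own repair route. Base excision repair cuts out a single altered base and fills the gap, nucleotide excision repair removes a short stretch around a bulky lesion, and mismatch repair corrects errors left by replication. Breaks through both strands are rejoined directly by end joining or copied from the sister chromatid by recombination, which is largely a route of dividing cells. Satellite cells rest for most of adult life and keep their genome for long periods, and end joining is a main route by which resting cells close breaks.

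The deposited values are intensities after RMA, a procedure that subtracts background, brings arrays to a common distribution and merges the probes of a probe set, and all levels below are their log2. Levels of different probe sets are not comparable, so every comparison is between ages for the same probe set. Probe sets at or under the 40th percentile of the array on more than 10 of the 14 arrays were left out, and the brightest remaining probe set on average stands for its gene. Of the repair genes, 37 were measured in this way, through 63 kept probe sets. The single probe set of Lig4, the ligase of end joining, was below the 40th percentile on all 14 arrays, so that its level is known only as a bound. Of the 37, 33 lay above that percentile on every array, and the others were Xpa on 13, Mre11a and Chek2 on 12 each, and Xrcc3 on 5.

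The satellite cell markers, Pax7, Myf5, Myod1, Itga7, Cdh15 and Vcam1, were measured at every age, and their mean was 9.77 ± 0.12, 9.40 ± 0.24 and 9.29 ± 0.22 at 2, 12 and 24 months (SD, n = 5, 4 and 5). Of 5 macrophage and myeloid markers 4 were measured and none passed the test in aged against young samples: Lyz2 and Csf1r were above the 40th percentile on all 14 arrays (Lyz2 with a difference of 1.61, adjusted p = 0.0683), while Ptprc, which encodes CD45, was below it on all. Of 4 endothelial markers 3 were measured, and Tek fell (7.86, 7.16 and 6.68 at 2, 12 and 24 months, by 1.18 in aged against young samples, adjusted p = 0.0400). Kdr, above that percentile on all 14 arrays, had a difference of 0.39 and did not pass. Cdh5, above it on 4 arrays, had 0.035, and Pecam1 was below it on all. Of 4 fibro-adipogenic markers, all measured, Dcn rose (by 1.27, adjusted p = 6.947e-04). The others did not pass and differed in sign, with 1.08 for Pdgfra, -0.52 for Col1a1 and -0.88 for Col3a1. The means of these lists at the 3 ages were 5.04 ± 0.15, 5.32 ± 0.15 and 5.58 ± 0.38 for the macrophage and myeloid markers, 5.57 ± 0.25, 5.21 ± 0.18 and 5.31 ± 0.88 for the endothelial ones, and 10.61 ± 0.26, 10.99 ± 0.40 and 10.85 ± 0.65 for the fibro-adipogenic ones. Markers of tendon cells (Tnmd, Scx, Comp, Thbs4, Fmod) averaged 8.43 ± 0.57, 10.98 ± 0.62 and 11.02 ± 0.43, and those of mature muscle fibres (Acta1, Ckm, Myl1, Mylpf, Tnnt3) averaged 7.13 ± 0.56, 7.97 ± 0.55 and 9.46 ± 0.63 at the 3 ages. In aged against young samples 4 of the 5 tendon markers and all 5 fibre markers rose at an adjusted p under 0.05. In middle-aged against young samples 4 of the 5 tendon markers rose and none of the fibre markers passed. Between aged and middle-aged samples none of either list passed, with median differences of -0.019 and 1.54. The part of these shifts in the differences given below was not tested, and in such bulk samples fewer cells of a type and less RNA per cell cannot be told apart. The 3' minus 5' signal of the control probe sets for Gapdh and Actb, which grows as RNA or its amplified copy gets shorter, also moved with age and was 4.30 ± 0.54, 3.85 ± 0.25 and 3.54 ± 0.51. Finally, values centred by age split the arrays into 2 sets. Set 1 holds young arrays 1, 3 and 4, middle-aged arrays 2, 3 and 4, and aged arrays 1 and 2, and the other 6 arrays form set 2. These sets were defined from the values and have no counterpart in the labels.

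Few repair genes passed the test between ages. In aged against young samples 2 of the 37 measured genes (5.41%) passed an adjusted p of 0.05 in limma, against 4.30% of all 13579 genes tested (1.25% fell and 3.05% rose), and both fell. They were Parp1, the enzyme that senses single-strand breaks and marks them with poly(ADP-ribose), and Neil1, a glycosylase that removes oxidized bases. Between middle-aged and young samples Parp1 alone passed (2.70% of the measured repair genes, against 2.97% of all genes, of which 1.22% fell and 1.75% rose), and it fell there too. Between aged and middle-aged samples no repair gene and no other gene passed (0% of all genes), although 3 repair genes and 1306 genes in all (9.62%) had an unadjusted p under 0.05 (439 genes, 3.23%, with a negative difference). An F test over the 3 ages passed Parp1 alone (2.70%, against 4.16% of all genes).

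The signs of the changes were mixed. Of the 37 genes, 22 (59.5%) were lower in aged than in young samples, close to the 58.1% of all genes, and the median change was -0.11 log2 units, against -0.052 over all genes. In middle-aged against young samples 27 of 37 (73.0%) had a negative change, against 56.6% of all genes, with medians of -0.14 and -0.044. At an unadjusted p under 0.05 there were 8 repair genes with an aged minus young difference, and all 8 differences were negative (21.6% of the measured members, against 7.95% of all genes with a negative difference at that p). They were Parp1, Xrcc1, Neil1, Msh3, Ercc3, Xrcc6, Fancd2 and Trp53bp1. Among the other kept probe sets of the list, 1439840_at of Polb had a positive difference at that p. There 1422261_a_at of Msh3 and 1426296_at of Rad52 had negative ones. For the middle-aged minus young difference the genes were Parp1, Apex1, Ercc3, Prkdc and Trp53bp1, again all negative (13.5%, against 9.93%). On the probe set that stands for it, no repair gene separated all aged from all young arrays. Of all genes 1.97% did so downward and 3.48% upward. Among the other kept probe sets 1422261_a_at of Msh3 separated downward, and its aged level is only a bound. In middle-aged against young samples 2 repair genes, Ercc3 and Trp53bp1, separated downward (5.41%, against 5.07% of all genes) and none upward (3.62% of all genes).

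**Figure D1:**
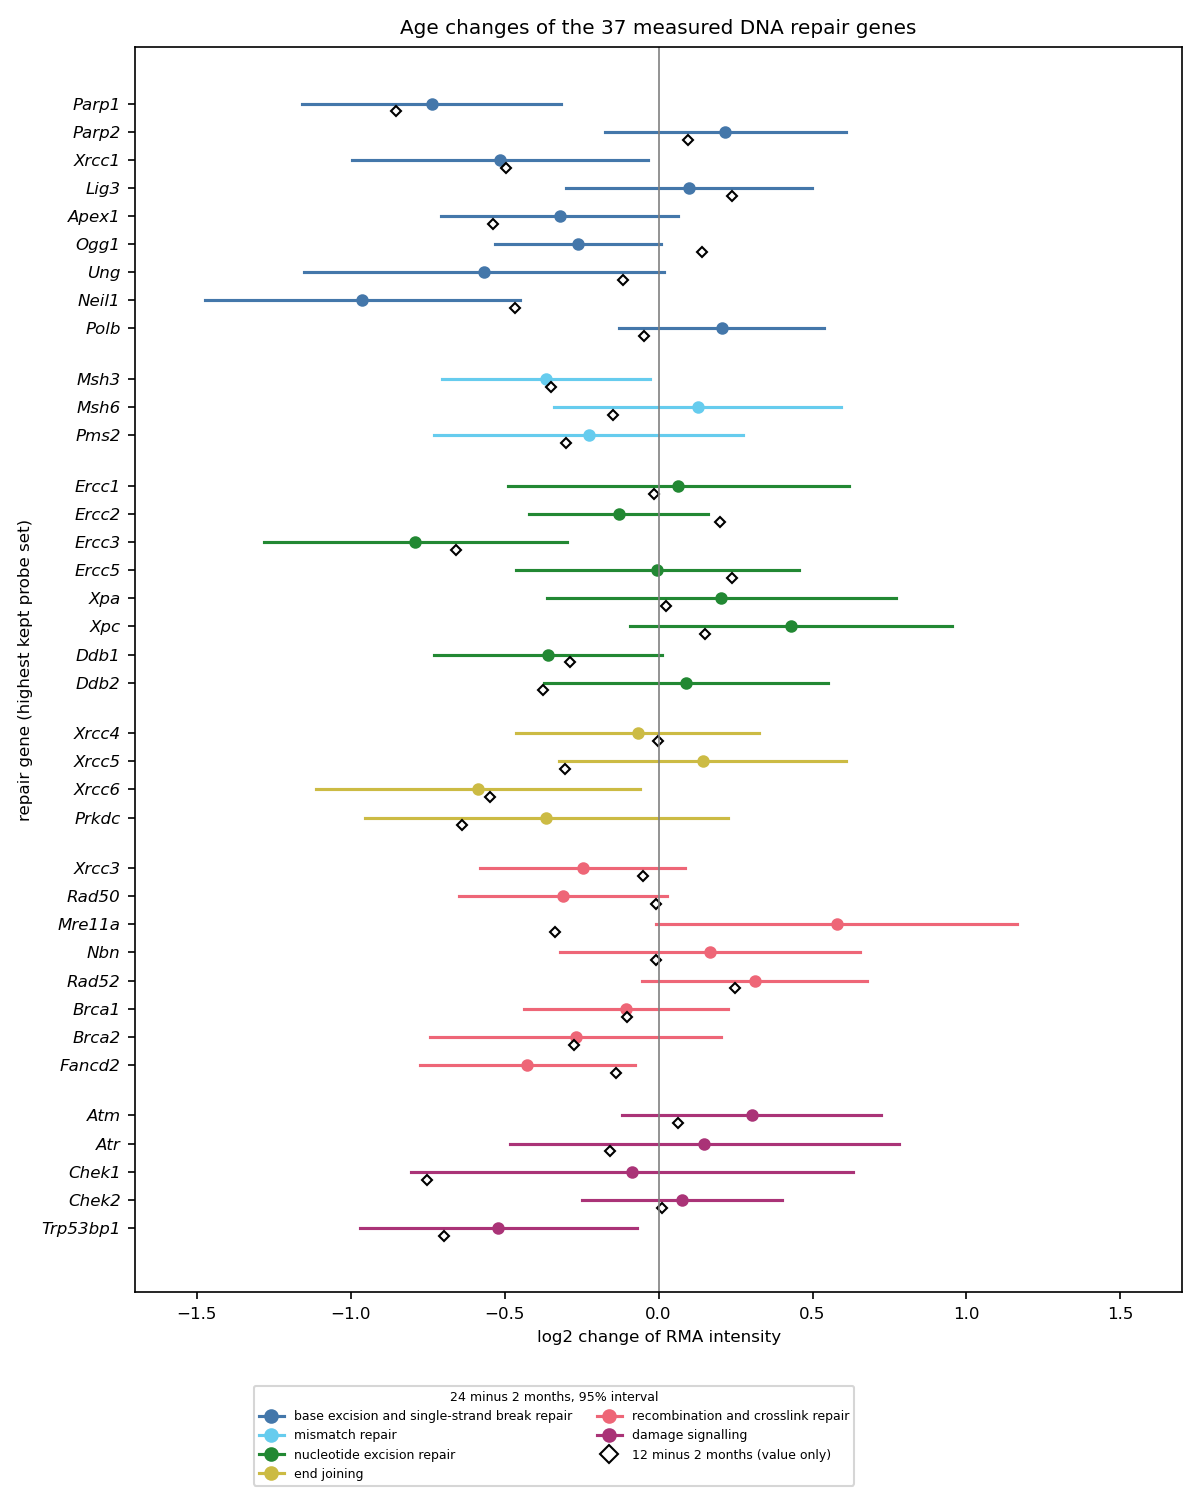
Log2 change of RMA intensity (horizontal axis) for each of the 37 measured repair genes, with aged minus young as filled points and 95% confidence intervals from limma, coloured by repair class, and middle-aged minus young as open diamonds without intervals. The aged minus young changes run from -0.96 for Neil1 to 0.58 for Mre11a, and 31 of the 37 intervals lie within 1 log2 unit of 0.

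The intervals bound what these arrays can show. The standard error of the aged minus young difference ran from 0.126 to 0.337 log2 units, with a median of 0.215. For 31 of the 37 genes the 95% interval stayed within 1 log2 unit of 0, a change of 2-fold in either direction. The intervals of Parp1, Neil1, Ercc3, Ung, Xrcc6 and Mre11a reached beyond that size.

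Base excision and single-strand break repair held both genes that fell. The promoters of both are shown because their transcripts were the only ones of the list called in aged cells. Each window runs from 250 bases before to 50 bases after the RefSeq start, on GRCm38.p6, and capitals mark matches on either strand to 3 promoter elements. The GC box was searched as GGGCGG. The CCAAT box was searched by the letters of its name. The TATA box was searched as TATAAA. The window of Parp1 lies at chr1:180568641-180568940 on the plus strand, and that of Neil1 at chr9:57148256-57148555 on the minus strand. The Parp1 window lies at the 5' end of the annotated gene, while the only Neil1 window of the RefSeq table lies at a start 383 bases inside the annotated gene, so that the gene's outer start is not in it.
Parp1: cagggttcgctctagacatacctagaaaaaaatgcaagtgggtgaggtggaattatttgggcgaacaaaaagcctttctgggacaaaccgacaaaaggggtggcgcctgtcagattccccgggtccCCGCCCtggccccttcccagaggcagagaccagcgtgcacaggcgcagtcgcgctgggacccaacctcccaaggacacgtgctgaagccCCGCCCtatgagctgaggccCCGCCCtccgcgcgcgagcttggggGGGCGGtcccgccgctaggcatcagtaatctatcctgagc
Neil1: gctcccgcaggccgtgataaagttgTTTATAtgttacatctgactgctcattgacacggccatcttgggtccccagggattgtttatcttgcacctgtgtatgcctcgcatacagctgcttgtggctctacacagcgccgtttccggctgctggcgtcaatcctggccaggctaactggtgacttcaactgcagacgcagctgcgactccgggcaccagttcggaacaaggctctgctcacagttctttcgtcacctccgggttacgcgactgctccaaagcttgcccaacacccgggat
The Parp1 window had 62% G and C, 20 CpG pairs and 4 GC boxes, at -124, -35, -15 and 10 from the start counted as 0. The Neil1 window had 56% G and C, 17 CpG pairs, no GC box and 1 TATA box match, on the reverse strand at -225. Over all 32851 RefSeq mouse windows of this length the median was 52.7% G and C and 7 CpG pairs, and a GC box was found in 35.7% and a TATAAA match in 13.6%. Among 31 windows that matched 30 of the repair genes a GC box was found in 67.7%, a CCAAT box in 48.4% (37.4% of all windows) and a TATAAA match in 9.68%. One of 3 forms of an E2F site, the element of factors that act in S phase (TTTGGCGC, TTTCCCGC or TTTGGCGG, either strand; the form TTTCCCGC can overlap a GC box), was found in 19.4% of the repair windows, against 2.1% of all windows. Those 6 windows belonged to Chek2, Brca2, Chek1, Msh3, Xrcc6 and Msh6, and the windows of Parp1 and Neil1 held none. A match describes these letters only.

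Parp1 (probe set 1435368_a_at) stood at 7.49, 6.91, 7.32, 6.61 and 7.22 in the young samples, at 6.61, 6.06, 5.89 and 6.47 in the middle-aged and at 6.66, 6.27, 6.62, 6.30 and 6.01 in the aged. The drop was already present at 12 months, and the overlap with the older ages came from young array 4, the lowest of its group. Parp1 fell by 0.74 log2 units in aged against young samples (SE 0.20, 1.67-fold, adjusted p = 0.0476) and by 0.85 in middle-aged against young (SE 0.21, adjusted p = 0.0406). The aged minus middle-aged difference was 0.12 (SE 0.21, adjusted p = 0.890). The aged against young call was marginal: it was lost when any 1 of aged arrays 2, 4 and 5, middle-aged arrays 2 and 4, or young arrays 1, 2, 3 and 5 was left out (adjusted p 0.0558 to 0.128).

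The fall of Parp1 also rested on a single probe set. The suffix of 1435368_a_at is the one Affymetrix gives to probe sets that match several transcripts of a gene. The other kept probe sets changed by -0.17 ± 0.19 (1422502_at) and -0.19 ± 0.14 (1422503_s_at) log2 units (SE), with adjusted p of 0.745 and 0.598 over all probe sets. On 1422502_at the young values were 5.04, 4.78, 4.87, 4.81 and 4.42, the middle-aged 4.51, 4.24, 4.93 and 4.87 and the aged 4.32, 4.61, 4.73, 4.34 and 5.10, and the ages overlapped widely. The fourth probe set of the gene, 1443573_at, was not kept.

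Neil1 (1452871_at) stood at 5.85, 5.15, 6.13, 6.03 and 5.74 in the young samples, at 5.77, 5.29, 5.51 and 4.68 in the middle-aged and at 5.19, 5.14, 4.94, 4.48 and 4.35 in the aged. Group means stepped down with age, at 5.78 ± 0.38, 5.31 ± 0.46 and 4.82 ± 0.39 (SD), and young array 2 lay within the range of the aged samples. Neil1 fell by 0.96 log2 units in aged against young samples (SE 0.24, 1.95-fold, 95% interval -1.47 to -0.45, adjusted p = 0.0322). The middle-aged minus young difference was -0.47 (SE 0.25, adjusted p = 0.399) and the aged minus middle-aged difference was -0.50 (SE 0.25, adjusted p = 0.551), so neither step was called alone. The call of Neil1 was lost when any 1 of aged arrays 4 and 5 or young arrays 1, 3, 4 and 5 was left out (adjusted p 0.0564 to 0.0979), and with the 3' minus 5' signal as a covariate its change was -0.69 (adjusted p = 0.218). Neil1 had 1 kept probe set, so no other probe set bears on it.

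**Figure D2:**
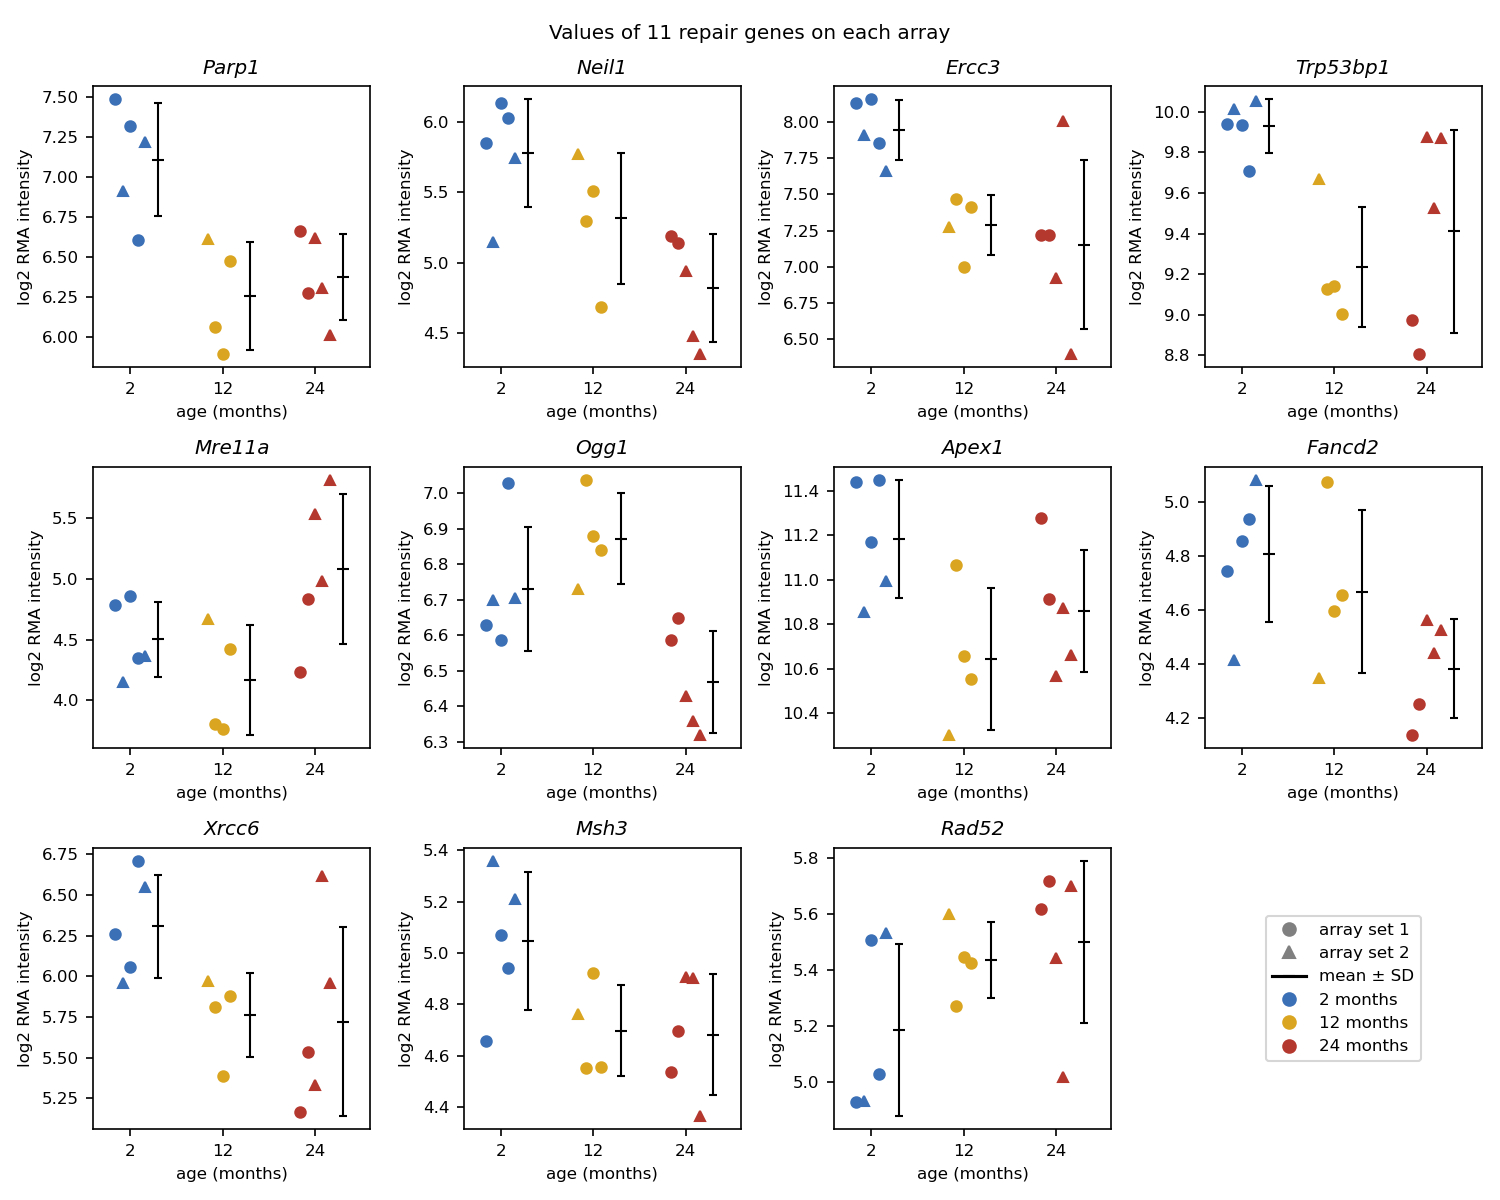
Log2 RMA intensity on every array (vertical axis, scaled per gene) against age in months for 11 repair genes, with circles for array set 1, triangles for array set 2, and the mean ± SD beside each group (n = 5, 4 and 5). Parp1 drops between 2 and 12 months, the means of Neil1 step down with age, and Ogg1 is lower on every aged than on every middle-aged array.

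The remaining genes of base excision repair did not pass the test. Xrcc1, the scaffold that gathers single-strand break repair proteins, had an aged minus young difference of -0.52 (SE 0.23, adjusted p = 0.257), and Ung, which removes uracil from DNA, had -0.57 (SE 0.27, adjusted p = 0.319). Ung was spread most in the aged group, at 6.31, 5.99, 4.54, 4.96 and 5.19, against 5.91, 6.21, 5.75, 6.26 and 5.72 in the young samples. Apex1, the nuclease that cuts DNA at sites that have lost their base, stood at 11.44, 10.85, 11.17, 11.45 and 11.00 in the young samples, at 10.30, 11.07, 10.66 and 10.55 in the middle-aged and at 11.28, 10.91, 10.57, 10.88 and 10.66 in the aged. Its groups overlapped, and its differences were -0.32 for aged minus young (adjusted p = 0.411) and -0.54 for middle-aged minus young (adjusted p = 0.168). Its other kept probe sets, 1416135_at and 1456079_x_at, had -0.65 and -0.64 for middle-aged minus young (adjusted p = 0.0806 and 0.0719 over all probe sets). On 1416135_at every middle-aged array was below every young array. For aged minus young these probe sets had -0.22 and -0.34. The values of Parp2, a relative of Parp1, Lig3, the ligase that works with Xrcc1, and Polb, the polymerase that fills the gap, were 0.22, 0.10 and 0.20 for aged minus young. Another kept probe set of Polb, 1439840_at, had 0.73 (SE 0.26, adjusted p = 0.167 over all probe sets). Over the 9 genes of the class 6 were lower in aged than in young samples, with a median of -0.32.

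Ogg1, the glycosylase for oxidized guanine, had a different order of ages. Its values were 6.63, 6.70, 6.59, 7.03 and 6.70 in the young samples, 6.73, 7.04, 6.88 and 6.84 in the middle-aged and 6.59, 6.65, 6.43, 6.36 and 6.32 in the aged. Every aged array was below every middle-aged array, a separation that 1.08% of all genes showed in that direction. Ogg1 was the only repair gene with it on the probe set that stands for the gene, and probe set 1426296_at of Rad52 showed it too. The aged minus middle-aged difference was -0.40 (SE 0.13, adjusted p = 0.402) and the aged minus young difference -0.26 (adjusted p = 0.318), and neither passed.

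In mismatch repair no gene passed. Msh3, which recognizes larger loops left by replication, stood at 4.66, 5.36, 5.07, 4.94 and 5.21 in the young samples, at 4.76, 4.55, 4.92 and 4.56 in the middle-aged and at 4.54, 4.70, 4.91, 4.90 and 4.36 in the aged. The groups overlapped, with young array 1 as low as the older samples, and the aged minus young difference was -0.37 (SE 0.16, adjusted p = 0.250). Its other kept probe set, 1422261_a_at, was above the 40th percentile on no aged, 1 middle-aged and 3 young arrays. It passed the filter through the ages where it was high, and its aged level is only a bound. Msh6, the partner that recognizes single mispaired bases, had 0.13, and Pms2, which cuts the strand to be corrected, had -0.23.

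In nucleotide excision repair no gene passed either, and the aged minus young median was 0.030 over 8 genes, 4 of them below 0. Ercc3, a helicase of TFIIH that opens DNA around a lesion, had the largest difference of the class. It stood at 8.13, 7.91, 8.16, 7.86 and 7.66 in the young samples, at 7.28, 7.47, 7.00 and 7.41 in the middle-aged and at 7.22, 7.22, 6.92, 8.01 and 6.39 in the aged. All 4 middle-aged arrays were below all young arrays, and aged array 4 was the only aged array within the young range. The differences of Ercc3 were -0.79 for aged minus young (SE 0.23, adjusted p = 0.0714) and -0.66 for middle-aged minus young (SE 0.25, adjusted p = 0.186). Without aged array 4 the aged minus young difference was -1.01 and passed (adjusted p = 0.00707). Ercc2, the other TFIIH helicase, had -0.13 for aged minus young and -0.33 for aged minus middle-aged (unadjusted p = 0.0376, adjusted p = 0.485). Its other kept probe set, 1442253_at, had the opposite sign in both, with 0.30 and 0.29. The lesion sensor Xpc had 0.43 for aged minus young (adjusted p = 0.420), and Ddb1, an adaptor of the ubiquitin ligase that works with the sensor Ddb2, had -0.36 (adjusted p = 0.318). Ercc1 and Ercc5, which belong to the nucleases that cut on either side of the lesion, had 0.064 and -0.0040. Xpa, which binds the opened DNA, had 0.20 and Ddb2 had 0.089. Other kept probe sets had 0.35 (1417328_at) and -0.096 (1441838_at) for Ercc1, and -0.19 (1425706_a_at) for Ddb2.

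Among end-joining genes 4 were measured and none passed. Xrcc6, a subunit of the Ku ring that binds broken ends, stood at 6.26, 5.96, 6.06, 6.71 and 6.55 in the young samples, at 5.97, 5.81, 5.39 and 5.88 in the middle-aged and at 5.17, 5.53, 5.33, 6.61 and 5.96 in the aged. Aged array 4 was again high, at the level of the highest young arrays, while aged array 5 matched the lowest young array and aged arrays 1, 2 and 3 lay below it. The aged minus young difference was -0.59 (SE 0.25, adjusted p = 0.232), and without aged array 4 it was -0.81 and passed (adjusted p = 0.0366). Xrcc5, the other Ku subunit, had 0.14 for aged minus young, with an interval of -0.32 to 0.61. Prkdc, the kinase that Ku recruits, had -0.37 for aged minus young and -0.64 for middle-aged minus young (adjusted p = 0.294). Xrcc4, which holds the ligase at the ends, had -0.068. Its other kept probe set, 1424602_s_at, above the 40th percentile on 6 arrays, had 0.37 (SE 0.33).

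In recombination and crosslink repair 8 genes were measured, none passed, and 5 were lower in aged than in young samples (median -0.18, with the dim Xrcc3 among the 5). Fancd2, the protein that the Fanconi anaemia pathway places at crosslinked DNA, stood at 4.75, 4.42, 4.86, 4.94 and 5.08 in the young samples, at 4.35, 5.07, 4.60 and 4.65 in the middle-aged and at 4.13, 4.25, 4.56, 4.44 and 4.53 in the aged. Only young array 2 lay within the aged range, and the aged minus young difference was -0.43 (SE 0.16, adjusted p = 0.184). Its other kept probe set, 1438339_at, above the 40th percentile on 8 arrays, had -0.11 (SE 0.13, adjusted p = 0.774 over all probe sets). Rad50 and Nbn, which form a complex with Mre11a at broken ends, had -0.31 and 0.17 for aged minus young.

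Mre11a itself, the nuclease of that complex, had the most positive aged minus young difference among the probe sets that stand for a gene. It stood at 4.79, 4.15, 4.86, 4.35 and 4.37 in the young samples, at 4.67, 3.80, 3.76 and 4.42 in the middle-aged and at 4.23, 4.84, 5.53, 4.98 and 5.82 in the aged. The high values were those of aged arrays 3 and 5. The differences were 0.58 for aged minus young (SE 0.28, adjusted p = 0.310) and 0.92 for aged minus middle-aged (SE 0.29, adjusted p = 0.389). This probe set, 1416748_a_at, was above the 40th percentile on all aged and young arrays but on only 2 middle-aged arrays. Its middle-aged level is therefore partly a bound, and 0.92 is not a measured size. The second kept probe set of Mre11a, 1441990_at, had an aged minus young difference of -0.034 ± 0.15 (SE).

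Rad52, which anneals single strands, gave opposite signs on its 2 kept probe sets. On 1416602_a_at the values were 4.93, 4.93, 5.51, 5.03 and 5.53 in the young samples, 5.60, 5.27, 5.44 and 5.42 in the middle-aged and 5.62, 5.72, 5.44, 5.02 and 5.70 in the aged, a difference of 0.31 ± 0.17 for aged minus young (SE, adjusted p = 0.397). On 1426296_at the difference was -0.41 ± 0.16 (adjusted p = 0.216 over all probe sets). There the aged minus middle-aged difference was -0.55 ± 0.17 (adjusted p = 0.433), with every aged array below every middle-aged array. The direction for Rad52 is therefore not fixed by these arrays. Brca1 and Brca2, which load the strand-exchange machinery, had -0.11 and -0.27. Xrcc3, a helper of strand exchange, was above the 40th percentile on no aged, 2 middle-aged and 3 young arrays, so that its aged level is only a bound and no size is given for its difference.

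Among the damage signalling genes, Trp53bp1, a chromatin protein that gathers at breaks and favours end joining, had the largest aged minus young difference. It stood at 9.94, 10.01, 9.94, 9.71 and 10.05 in the young samples, at 9.67, 9.13, 9.14 and 9.00 in the middle-aged and at 8.97, 8.80, 9.88, 9.53 and 9.87 in the aged. All middle-aged arrays were below all young arrays, and the aged arrays fell apart, with arrays 1 and 2 below every middle-aged array and arrays 3 and 5 within the young range. The differences were -0.70 for middle-aged minus young (SE 0.22, adjusted p = 0.120) and -0.52 for aged minus young (SE 0.21, adjusted p = 0.213). Of its other kept probe sets, 1426957_at had -0.28, 1435609_at had -0.33 and 1446100_at had 0.18 for aged minus young. For middle-aged minus young they had -0.56, 0.25 and 0.047 in that order, and none passed over all probe sets.

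No kinase of damage signalling passed the test in aged against young samples. Atm, activated by breaks, had 0.30, Atr, activated by stalled forks, 0.15, Chek1, which Atr activates, -0.087 and Chek2, which Atm activates, 0.075 log2 units, each with an adjusted p of 0.497 or more. The 95% interval ran from -0.12 to 0.72 for Atm and from -0.80 to 0.63 for Chek1. The other kept probe set of Atr, 1427197_at, had 0.51 for aged minus young (SE 0.35, adjusted p = 0.548 over all probe sets). For Chek1 the middle-aged minus young difference was -0.75 (SE 0.36, adjusted p = 0.314). All values of Chek1 came from 1449708_s_at, the only 1 kept of its 5 probe sets. It counted as a probe set of shared sequence, and the others were above the 40th percentile on at most 1 array.

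The agreement of probe sets within a gene sets how far a single value can be read. Of the 37 measured genes 16 had more than 1 kept probe set, and for 7 of the 16 the aged minus young differences had opposite signs. Those 7 were Ddb2, Ercc1, Ercc2, Mre11a, Rad52, Trp53bp1 and Xrcc4. The range between probe sets of 1 gene reached 0.72 log2 units, for Rad52, and was 0.70 for Trp53bp1, 0.63 for Polb, 0.61 for Mre11a and 0.57 for Parp1. Tested over all 23887 kept probe sets, only that of Neil1 passed among the 63 repair probe sets (adjusted p = 0.0413), against 3.10% of all probe sets (0.888% fell), and 1435368_a_at of Parp1 had an adjusted p of 0.0600. Of the 63, 36 were below 0.

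**Figure D3:**
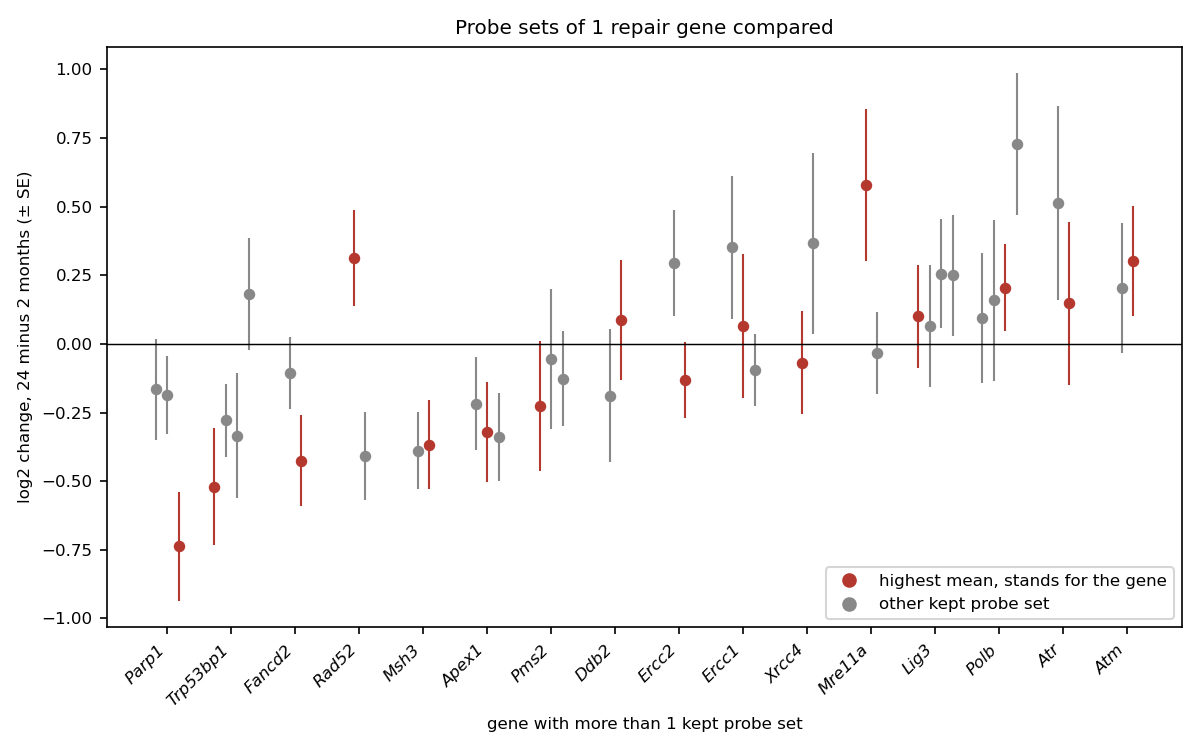
Aged minus young log2 change ± SE of every kept probe set (vertical axis) for the 16 repair genes with more than 1, with the probe set of highest mean, which stands for the gene, in red and the others in grey. The red points of Parp1 (-0.74) and Mre11a (0.58) stand apart from the other probe sets of the same gene, and those of Rad52 lie on both sides of 0.

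Some repair genes had like differences within both array sets and others did not. Within set 1 (2 aged and 3 young arrays) 26 of the 37 genes were lower in aged samples, with median -0.20 (all genes -0.075). Within set 2 (3 aged and 2 young) 18 were, with a median of 0.024 (all genes -0.0071). The sign was the same in both sets for 23 genes, negative for 15 of them. Parp1 differed by -0.67 and -0.76 in sets 1 and 2, Neil1 by -0.84 and -0.86, and Ercc3 by -0.83 and -0.68. These genes had the smallest F test p of the list over all arrays, so like values in both sets were partly given in advance. Among genes whose values in the sets lay further apart, Xrcc1 differed by -1.03 and 0.11, Ung by 0.18 and -1.06, Mre11a by -0.13 and 1.19, Chek1 by -0.70 and 0.38, Xrcc6 by -0.99 and -0.29, and Trp53bp1 by -0.97 and -0.28. Whether the difference between the sets is itself larger than the spread was not tested. Within set 1 alone Ercc3, Trp53bp1, Xrcc1 and Xrcc6 passed in aged against young samples and neither Parp1 nor Neil1 did. Over all 13579 genes 702 passed in that comparison within set 1. The sets were drawn from the spread of these same values around the age means, so calls within a set are not valid tests of age.

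**Figure D4:**
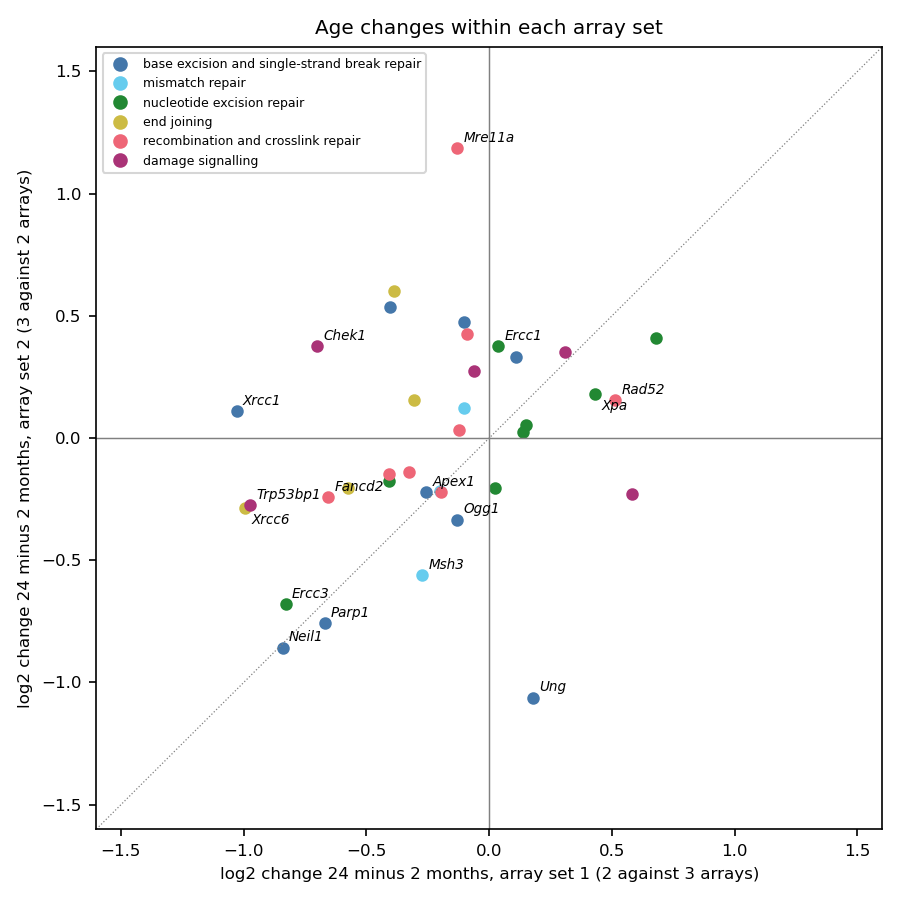
Aged minus young log2 change of each measured repair gene within array set 1 (horizontal axis, 2 aged and 3 young arrays) and within array set 2 (vertical axis, 3 aged and 2 young arrays), coloured by repair class, with a dotted line where both are equal. Neil1, Parp1 and Ercc3 lie near that line at negative values, while Xrcc1, Ung, Mre11a and Chek1 lie on opposite sides of 0 in the sets.

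Further repair genes were read from the same fit. Of 93 further genes of the same routes 72 were measured, 41 of them lower in aged than in young samples (56.9%, against 58.1% of all genes), with a median of -0.041. Of the 72, 1 fell (1.39%, against 1.25% of all genes) and none rose (3.05% of all genes). The gene that fell was Smug1, a glycosylase that, like Ung, removes uracil and thus belongs to base excision repair. It averaged 6.76 ± 0.38, 5.35 ± 0.13 and 5.75 ± 0.49 at 2, 12 and 24 months (SD). Its aged values, 4.98 to 6.23, lay below its young values, 6.28 to 7.15, without overlap. Smug1 fell by 1.01 log2 units in aged against young samples (SE 0.23, 2.01-fold, adjusted p = 0.0175) and by 1.41 in middle-aged against young (SE 0.24, adjusted p = 0.00500). Its RefSeq start window, printed for comparison with those of Parp1 and Neil1, lies at chr15:103163235-103163534 on the minus strand, at a start 5655 bases inside the annotated gene, and had 53% G and C, 15 CpG pairs, 1 GC box at 44 and 1 reverse CCAAT match at -227.
Smug1: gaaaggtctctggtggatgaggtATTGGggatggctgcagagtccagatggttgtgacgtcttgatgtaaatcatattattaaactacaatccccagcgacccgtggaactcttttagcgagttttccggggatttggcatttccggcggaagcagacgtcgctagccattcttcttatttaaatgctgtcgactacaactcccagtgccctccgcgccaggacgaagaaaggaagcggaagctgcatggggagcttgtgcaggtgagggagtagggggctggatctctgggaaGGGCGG

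Genes of S phase and mitosis were set beside the repair genes because several repair routes act in dividing cells. Of 25 such genes 20 were measured, and their mean was 6.75 ± 0.38, 6.19 ± 0.16 and 6.44 ± 0.27 at 2, 12 and 24 months (SD). In aged against young samples 13 of the 20 (65%, against 58.1% of all genes) were lower, with a median of -0.28, and Cdc20, which switches on the complex that starts anaphase, was the only 1 that fell (by 1.45 log2 units, SE 0.33, adjusted p = 0.0183), which 1.25% of all genes did. In middle-aged against young samples 18 of the 20 (90%, against 56.6% of all genes) were lower, with a median of -0.45. Cdc20 alone passed there too (fell by 1.44, adjusted p = 0.0383), and 10 of the 20 had an unadjusted p under 0.05, all with a negative difference (9.93% of all genes). The mean over the 37 repair genes was 6.31 ± 0.11, 6.11 ± 0.08 and 6.17 ± 0.12 at these ages, also lowest at 12 months, and the part of cell division in it was not tested. By age, the S phase and mitosis mean in set 1 was 6.97, 6.90 and 7.18, then 6.12, 6.07 and 6.14, then 6.12 and 6.37. In set 2 it was 6.36 and 6.34, then 6.43, then 6.85, 6.46 and 6.37. The repair mean in set 2 was 6.17 and 6.20 on the young arrays and 6.19 on the middle-aged array. In set 2 neither mean put the middle-aged array below both young arrays.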

How the data were processed

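Total RNA of sorted cells was labelled with a 3'IVT kit and hybridized to Affymetrix arrays, per the labels' protocols. The authors made the deposited intensities, which are linear and not log values, with RMA, per the submitters' processing notes. The version of RMA is not given in the sources used here, nor is a build. Array medians of the deposited intensities ran from 19.0 to 21.2. Arrays count no reads, and precision is limited by how many there are.

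The log2 of each deposited value was taken here with no further normalization. Symbols came from the platform annotation, and all 38 genes with a probe set matched RefSeq by Entrez identifier with 0 symbols changed. Of 34945 probe sets with 1 symbol, 23887 lay above the 40th percentile of their array (log2 3.79 to 3.96) on at least 4 arrays, giving 13579 genes. Limma 3.58.1 (R 4.3.3) fitted age as the only factor over all 14 arrays, with two-sided tests, Benjamini-Hochberg adjustment over all genes and calls at an adjusted p under 0.05. The fit was tested on simulated data.

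The members, the further gene lists and the array sets were chosen with earlier results of these data known. Values on every array are given for called members, for further members in order of the F test p up to 10, and for members whose probe sets differ in sign beyond 0.5. Alternatives changed the filter, probe set choice, normalization, variance model, array weights, covariates, a replicate block and the arrays used. The setting without shared sequence left out probe sets with the suffix _a, _s or _x wherever the gene had another kept. Of these, _a marks probe sets that match several transcripts of the same gene. No 2 arrays held identical values (highest correlation 0.984).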

Additional observations from a re-analysis of the deposited data

Results flagged for a closer look

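Ogg1 had a value of 7.03 on young array 4, apart from the other 4 young arrays, which lay between 6.59 and 6.70. The gap to the nearest of them was 0.734 of the range of the young group, above the critical value of Dixon's test at the 95% level. It was the only 1 flagged among 33 groups of arrays tested for the 11 genes given on every array, and chance flags about 1 in 20 groups, or 1.65 of 33.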

How the results depend on the processing

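The count of repair genes called in aged against young samples, 2 as reported, was 1 (Neil1) with no dim filter, with the mean of kept probe sets, without probe sets of shared sequence, with median centring, with a trend and robust variance, with a replicate block and with only the groups compared. It was 0 with the 3' minus 5' covariate and within array set 2, 4 within array set 1, and 3 with quantile normalization or array weights (adding Ercc3) and with the set as a term (adding Trp53bp1). Middle-aged against young, 1 as reported, gave 0 with the mean of probe sets, the trend, the replicate block and set 2, then 4 with array weights, 2 with the covariate, 3 with the set as a term or with only the groups compared, and 6 in set 1. The F test, 1 as reported, gave 0 with the mean of probe sets, without shared sequence, with median centring, the trend, the covariate, the replicate block and in set 2, then 4 with array weights and 3 with the set as a term or in set 1. Repair probe sets called in aged against young, 1 as reported, were 0 with no dim filter, array weights, the covariate, the replicate block and in set 2, and 3 with quantile normalization or the set as a term. Aged against middle-aged stayed at 0 under all 15 alternatives. The median change moved to 0.024 in set 2. Calls over all 13579 genes also varied. In middle-aged against young samples there were 403 as reported and 1153 with array weights. There were 717 with the covariate, 741 with the set as a term, 599 with only the groups compared and 964 in set 1. The mean of probe sets gave 360, the trend 377 and the replicate block 194. In aged against young samples there were 584 as reported, 462 with the covariate and 619 with quantile normalization. Array weights gave 630, the set as a term 976, and 702 passed in set 1. The causes of these shifts were not tested. Counts within an array set or with the set as a term use sets drawn from these same values, so they are descriptive only. Signs reversed for Rad52 (-0.048 with the mean of probe sets, -0.41 without shared sequence), Mre11a (-0.034 without shared sequence, -0.13 in set 1), Apex1 (0.033 with the covariate) and the middle-aged minus young difference of Neil1 (0.32 in set 2).

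Over the 15 alternatives the aged minus young change of Neil1 kept its sign and passed in 12 (adjusted p 0.0263 to 0.340), and that of Parp1 kept its sign and passed in 5 (0.0253 to 0.724), as low as -0.17 in size without shared sequence. Parp1 in middle-aged against young passed in 10, and it was lost when any 1 of middle-aged arrays 2, 3 and 4 or young arrays 1, 2, 3 and 5 was left out (adjusted p up to 0.151). Leaving out each array in turn gave 0 to 2 calls in aged against young, 0 to 1 in middle-aged against young, 0 to 0 in aged against middle-aged, 0 to 1 in the F test and 0 to 2 probe sets, with a median change of -0.18 to -0.045. Replicate numbers did not pair the arrays: 13 same-numbered pairs correlated at -0.47 to 0.31 (median -0.07), 5 of them over 0.1. With the replicate block Parp1 had an adjusted p of 0.0592 in aged against young and 0.0623 in middle-aged against young.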

Other observations

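Further genes of nucleotide excision repair had their lowest mean at 12 months, which was not tested as a list and does not hold for each gene. Of 20 measured outside the list described above, among them the damage-binding Rpa1, Rpa2 and Rpa3, 16 were lower in middle-aged than in young samples (80%, against 56.6% of all genes), with a median of -0.24 log2 units, and 8 were lower in aged than in young samples (40%, against 58.1%), with a median of 0.033. None of them passed the test in either comparison. Their mean was 6.69 ± 0.09, 6.40 ± 0.16 and 6.73 ± 0.20 at 2, 12 and 24 months (SD, n = 5, 4 and 5). The further damage signalling genes, 13 in number, averaged 6.65 ± 0.11, 6.35 ± 0.30 and 6.62 ± 0.25 at these ages, and none passed. Their mean was 6.80 on middle-aged array 1, of set 2, and 6.21, 6.16 and 6.22 on middle-aged arrays 2, 3 and 4. The further recombination and crosslink repair genes, 19 in number, averaged 5.29 ± 0.05, 5.34 ± 0.13 and 5.31 ± 0.08, and none passed.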
